A study of Mus musculus with 24 samples.

Results

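The genes of glycolysis and the pentose phosphate pathway were examined in CD4+ T cells of the mouse during the first 24 h of activation. They are 36 of the 22009 named genes in the table. They were chosen by their known place in glucose metabolism, with earlier results of these data known. The list holds glucose transporters, the enzymes from hexokinase to lactate dehydrogenase, lactate transporters and regulators of the pathway. It also holds the pyruvate dehydrogenase complex and the enzymes of both arms of the pentose phosphate pathway. Glycolysis breaks glucose down to pyruvate in the cytosol and yields ATP. The pyruvate is either reduced to lactate, which leaves the cell, or enters mitochondria through pyruvate dehydrogenase. The pentose phosphate pathway branches off after the hexokinase step, and supplies NADPH from its oxidative arm and ribose for nucleotides from its non-oxidative arm. T cells are known to take up more glucose and to release more lactate after activation through the T cell receptor, before they divide.

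RNA was sequenced from CD4+ T cells of the spleen of adult wild-type C57BL/6 mice, pooled and isolated with magnetic beads by negative selection. The cells were activated with plate-bound anti-CD3ε and soluble anti-CD28 as Th0 cultures. Th1 cultures received anti-IL-4 and rmIL-12 in addition, and Th2 cultures received anti-IL-12, anti-IFN-γ and rmIL-4. Each condition was sequenced once at 4, 8, 12, 16, 20 and 24 h, which gave 18 libraries, beside 2 libraries of resting cells. In a further 4 libraries, actinomycin, which stops transcription, was added after 16 h of stimulation and left on for 0, 1, 2 or 4 h. The labels do not give the skewing of those cells. All libraries are wild type, and the cultures stem from 1 pool, so p-values measure the spread between these libraries and not between animals. The resting libraries carry another number in their labels than the cultures, so the preparation and the activation cannot be told apart.

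The values are RPKM, read counts scaled for transcript length and depth, so levels can be set side by side between genes. The depth read from the steps in the values was between 17512385 and 33017133 mapped reads per library, and the lowest was Th2 at 12 h. The 7 CD4+ T cell markers summed to 1843 to 1859 RPKM at rest and to 1246 to 1460 RPKM at 24 h. The resting libraries also held RNA of other cells: 9 haemoglobin genes took 6.25 to 6.86% of the summed RPKM at rest and 4.99 to 7.36% at 4 h, and fell to between 139 and 210.4 RPKM at 24 h. The 8 red cell markers summed to 1153 to 1192 RPKM at rest and to 2.49 to 3.51 RPKM at 24 h, and the 13 macrophage markers, none of them at 0 at rest, fell from between 671 and 697 to between 14.3 and 25.6 RPKM. B cell, CD8 and NK cell, neutrophil and platelet markers were lower at 24 h as well, from between 12.6 and 147 RPKM per list at rest. Fewer cells of a type and less RNA per cell cannot be told apart in bulk RNA, and the part of these cells in the changes from rest was not tested. The library of Th0 at 8 h stood farthest from the other 2 cultures of its time, with 734 of 10897 genes at least 2-fold from their mean, against 59 to 570 genes in the other 17 cultures.

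The 36 genes together took 0.476 and 0.488% of the summed RPKM in the resting libraries. The Th2 culture at 4 h had 0.610%, above both, while Th0 with 0.485% and Th1 with 0.460% did not exceed the higher of them. All cultures of 24 h had between 1.10 and 1.31%. Without Gapdh, the most abundant of them, the other 35 took 0.378 to 0.389% at rest and 0.722 to 0.901% at 24 h. Changes were tested with limma on log2(RPKM + 0.5) and called where the adjusted p was under 0.05 and the change 2-fold or more. Every difference printed with its SE is on this log2 scale, and cultures are listed in the order Th0, Th1 and Th2. Aldoc, at 1.03 RPKM at rest and 1.06 RPKM at 24 h on average, had too low a mean over the course to be tested, which left 35 genes. The median log2 difference of the 35 from resting cells was 0.03 at 4 h, 0.35 at 8 h, 0.57 at 12 h, 0.70 at 16 h, 0.81 at 20 h and 0.80 at 24 h, while that of all 10897 genes tested was between -0.07 and -0.01.

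At 4 h, 2 of the 35 genes had risen and 2 had fallen, beside 2.61% and 7.97% of all genes tested. The number of risen genes was 6 at 8 h (6.42% of all genes), 8 at 12 h (10.7%), 10 at 16 h (11.2%), 12 at 20 h (12.9%) and 11 at 24 h (12.7%). The number of fallen genes was 2 at 8 h (12.5% of all genes) and 3 at each of 12 h (16.4%), 16 h (14.5%), 20 h (16.1%) and 24 h (17.4%). The split at 24 h depended on the scaling, with 17 higher and 2 lower after median-of-ratios scaling, which moved the median of all genes from -0.04 to 0.10. By the ranges alone, all 3 cultures lay above both resting libraries for 11 of the 35 genes at 4 h, where 23.9% of all genes did, and below both for 9, where 33.9% did. At 24 h the cultures lay above both resting libraries for 27 of the 35 genes, against 38.7% of all genes, and below both for 6, against 41.9%.

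**Figure D1:**
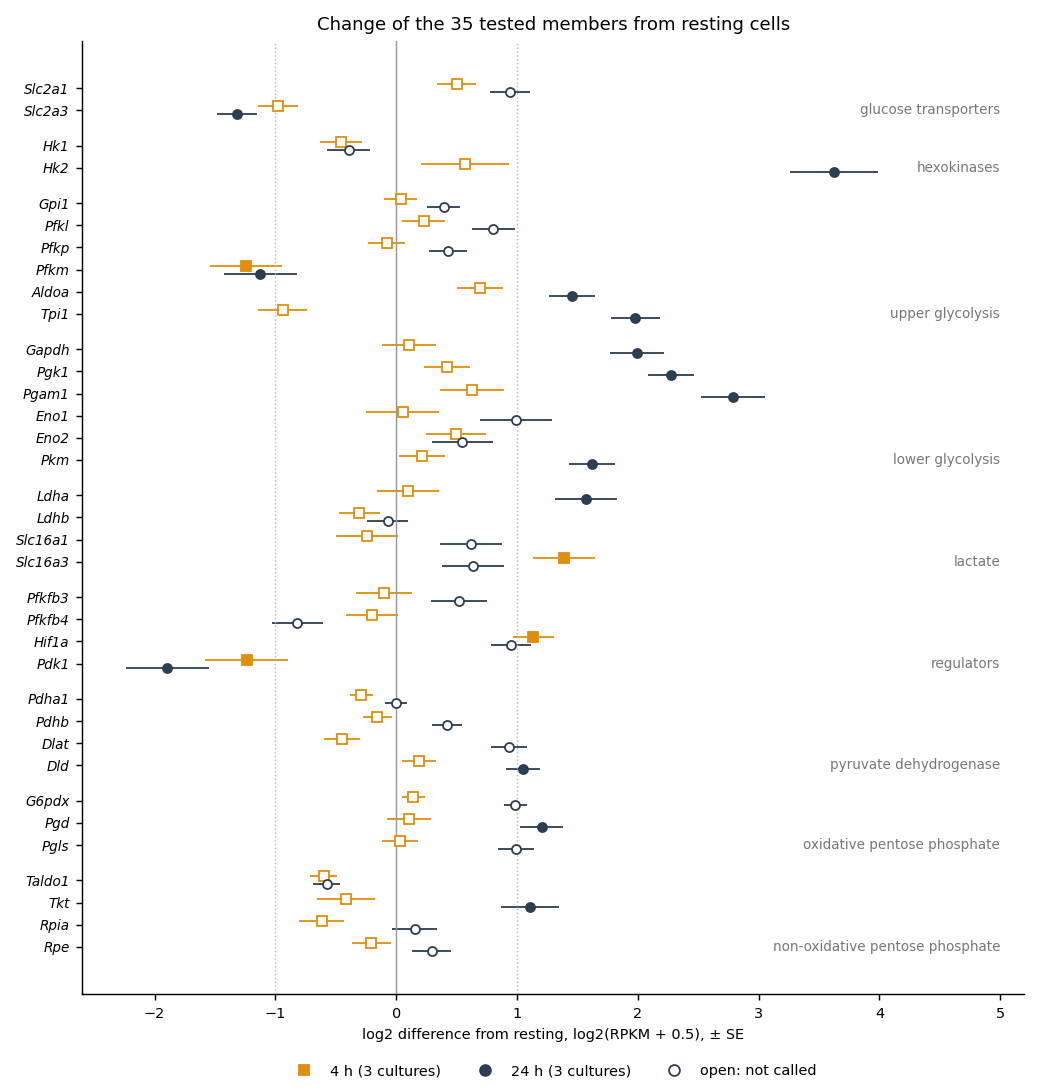
Difference from resting cells in log2(RPKM + 0.5) on the x axis for the 35 tested genes, ordered by role, at 4 h (squares) and at 24 h (circles), as fitted over 3 cultures against 2 resting libraries. Bars are ± SE, filled symbols were called at an adjusted p under 0.05 and 2-fold, and dotted lines mark 2-fold. Hk2 lies farthest to the right at 24 h, at 3.62, and Pdk1 farthest to the left, at -1.90.

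The glucose transporters moved in opposite directions. Slc2a1 encodes GLUT1, the transporter that is known to bring glucose into activated T cells, and lies on GRCm38 on chromosome 4, 119108711 to 119137983, plus strand. Its level was 13.9 and 15.5 RPKM in the resting libraries, 20.4, 20.0 and 22.6 RPKM in Th0, Th1 and Th2 cultures at 4 h and 28.6, 33.5 and 24.5 RPKM at 24 h. All 18 cultures lay above both resting libraries, and the rise was past the adjusted p at 4 h, at 0.50 ± 0.16 (SE, adjusted p = 0.0275), and at 24 h, at 0.94 ± 0.16 (SE, adjusted p = 0.000107). Slc2a3 encodes GLUT3, a transporter of high affinity for glucose (chromosome 6, 122727809 to 122801640, minus strand). It was at 23.7 and 25.2 RPKM at rest, 11.6, 11.7 and 13.1 RPKM at 4 h, then 10.7, 9.45 and 8.44 RPKM at 24 h. Every culture lay below both resting libraries, with a difference of -1.32 ± 0.17 (SE, adjusted p = 4.36e-06) at 24 h. Slc2a1 took 37.0 to 38.1% of the RPKM of this pair at rest, 63.1 to 63.7% at 4 h and 72.8 to 78.0% at 24 h.

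The hexokinases phosphorylate glucose and so hold it in the cell. Hk2 is the isozyme that many growing cells induce, and Hk1 is the more widely expressed one. Their promoters are shown here, and those of the lactate dehydrogenases and lactate transporters further on, so that the regulatory sequence of members that share a reaction can be compared. The gene starts and sequences are RefSeq's on GRCm38.p6, and each run covers the 250 bases before a start, 5′ to 3′ on the gene's strand. Capitals mark ACGTG, the core that HIF and MYC sites share, and GCGTG, the other form of the HIF core, on either strand. The Hk2 promoter held 2 ACGTG and no GCGTG, and the promoter of the downstream of the 2 Hk1 starts held 3 GCGTG and no ACGTG. The other Hk1 start had neither.
Hk2 (chr6:82774455-82774704, minus strand): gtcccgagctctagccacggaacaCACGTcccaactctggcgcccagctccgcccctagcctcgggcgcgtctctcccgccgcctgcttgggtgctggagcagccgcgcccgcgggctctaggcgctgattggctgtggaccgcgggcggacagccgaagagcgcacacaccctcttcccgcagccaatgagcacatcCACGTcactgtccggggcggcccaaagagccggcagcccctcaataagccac
Hk1 (chr10:62340422-62340671, minus strand): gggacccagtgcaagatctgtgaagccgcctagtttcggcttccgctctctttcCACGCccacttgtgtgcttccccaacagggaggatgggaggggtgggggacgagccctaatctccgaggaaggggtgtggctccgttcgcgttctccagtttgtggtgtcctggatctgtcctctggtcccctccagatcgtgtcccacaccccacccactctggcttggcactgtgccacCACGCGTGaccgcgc

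The set of RefSeq promoters used here covered 35 of the 36 genes, 49 promoters in all, and held no entry for Slc2a3. ACGTG occurred on either strand in 32.7% of the 49, against 16.6% of all 32851 promoters of this length. GCGTG occurred in 55.1% against 28.2%, and CACGTG, the E-box that MYC binds and that contains ACGTG, in 10.2% against 6.02%. Some of the 49 are overlapping windows of the same gene, as for Aldoa, Eno1 and Pfkm, and can hold the same match. Counted by gene with a match in any promoter, ACGTG occurred in 37.1% of 35 genes against 18.5% of all 27025. For GCGTG these shares were 65.7% and 30.85%, and for CACGTG 14.3% and 6.86%. The shares were not matched for base composition, and a match of letters is not a bound site.

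Hk2 (chromosome 6, 82725025 to 82774454, minus strand) was at 1.74 and 1.70 RPKM in the resting libraries. In the order of the 6 times from 4 to 24 h, it was at 1.91, 3.65, 12.8, 17.0, 18.9 and 26.2 RPKM in Th0, 2.76, 10.4, 17.3, 17.7, 26.9 and 32.8 RPKM in Th1 and 4.04, 13.2, 18.1, 22.2, 24.1 and 22.5 RPKM in Th2. Every culture lay above both resting libraries, and Th0 stayed the lowest of the 3 up to 20 h. The mean went from 1.72 ± 0.0322 RPKM (SD, n = 2) at rest to 27.2 ± 5.18 RPKM (SD, n = 3) at 24 h, a difference of 3.62 ± 0.37 (SE, adjusted p = 4.68e-07) or 12.3-fold on the scale with the pseudocount. Hk1 (chromosome 10, 62268855 to 62379908, minus strand) started far higher, at 71.3 and 71.6 RPKM, and went through a low: 56.3, 51.9 and 47.8 RPKM at 4 h, 45.1, 36.1 and 32.9 RPKM at 8 h and 60.0, 66.5 and 40.2 RPKM at 24 h. All cultures at these times lay below both resting libraries, and the difference at 8 h was -0.91 ± 0.18 (SE, adjusted p = 0.000516), while that at 24 h, -0.39 ± 0.18 (SE, adjusted p = 0.0617), did not pass the test. Hk2 made up 2.31 to 2.38% of the RPKM of the 2 hexokinases at rest, 3.28, 5.05 and 7.79% in Th0, Th1 and Th2 at 4 h, and 30.5, 33.0 and 35.9% at 24 h.

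**Figure D2:**
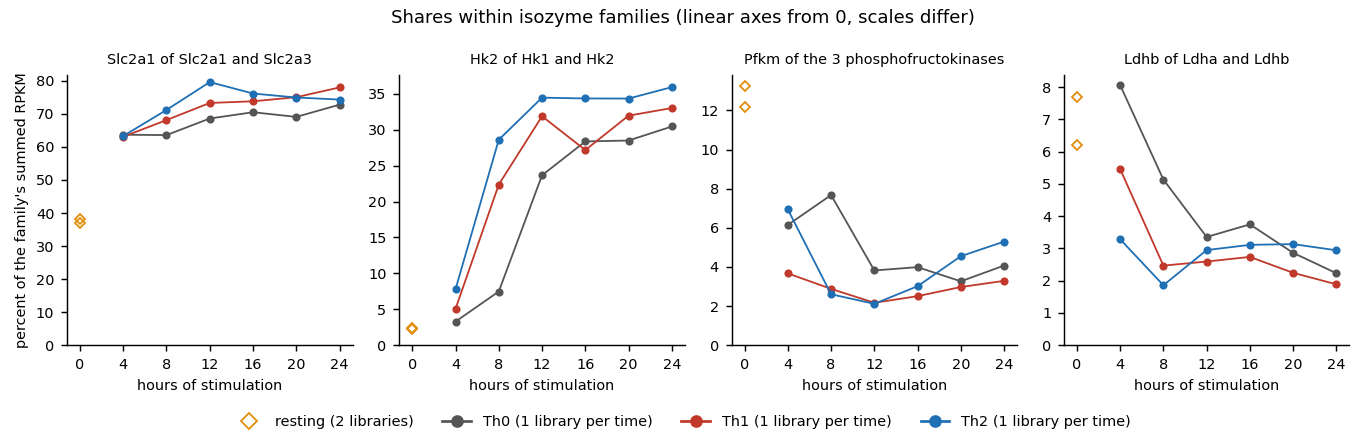
Share of 1 isozyme in the summed RPKM of its family, in percent on the y axis, against hours of stimulation, with diamonds for the 2 resting libraries and a line for each of Th0, Th1 and Th2 (1 library per time). The axes start at 0 and differ in scale. Hk2 went from at most 2.38% of the hexokinases at rest to at least 30.5% at 24 h, and Pfkm fell from at least 12.2% of the phosphofructokinases to at most 5.30%.

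In upper glycolysis, Aldoa and Tpi1 were called higher at 24 h, Pfkm was called lower, and Gpi1, Pfkl and Pfkp rose by less than 2-fold. Gpi1, which turns glucose 6-phosphate into fructose 6-phosphate, was at 175 and 173 RPKM at rest and 240.1, 249 and 200.2 RPKM at 24 h, a difference of 0.39 ± 0.14 (SE, adjusted p = 0.0178). The phosphofructokinases set the pace of the pathway. Pfkp, the platelet type, was the most abundant of them in every culture and stood at 61.3 and 57.9 RPKM at rest and 92.5, 91.0 and 61.8 RPKM at 24 h, with a difference of 0.43 ± 0.15 (SE, adjusted p = 0.0222). Pfkl, the liver type, went from 23.6 and 22.5 RPKM to 39.8, 45.3 and 37.2 RPKM, with a difference of 0.80 ± 0.18 (SE, adjusted p = 0.000864). Pfkm, the muscle type (chromosome 15, 98092589 to 98132451, plus strand), was the member of this step that fell: it was at 11.8 and 12.3 RPKM at rest, 5.92, 3.22 and 5.70 RPKM at 4 h, then 5.62, 4.63 and 5.53 RPKM at 24 h. Every culture had less Pfkm than both resting libraries, and the difference was -1.24 ± 0.30 (SE, adjusted p = 0.00456) at 4 h and -1.13 ± 0.30 (SE, adjusted p = 0.00366) at 24 h. Without the Th1 cultures the 4 h difference was -0.99 and under 2-fold. The 24 h difference was under 2-fold with median-of-ratios scaling, at -0.99, and with quantile normalization, at -0.92. Aldoa, the aldolase that splits the sugar (chromosome 7, 126800790 to 126809108, minus strand), went from 185 and 207 RPKM at rest to 295, 295 and 364 RPKM at 4 h and 529, 592 and 499 RPKM at 24 h, with 0.69 ± 0.19 (SE, adjusted p = 0.0101) at 4 h and 1.46 ± 0.19 (SE, adjusted p = 6.54e-06) at 24 h. Aldoc, the other aldolase here, was between 0.321 and 1.28 RPKM in the cultures and made up at most 0.57% of the aldolase RPKM.

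Tpi1, triosephosphate isomerase (chromosome 6, 124810586 to 124814296, minus strand), fell first and rose later. It was at 54.9 and 53.5 RPKM at rest, 24.5, 24.4 and 36.7 RPKM in Th0, Th1 and Th2 at 4 h, 62.0, 70.3 and 88.7 RPKM at 12 h and 187, 201 and 264 RPKM at 24 h. The cultures were all below both resting libraries at 4 h, with -0.94 ± 0.20 (SE, adjusted p = 0.00194), and all above them from 12 h, with 1.98 ± 0.20 (SE, adjusted p = 5.12e-07) at 24 h.

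Of the 6 genes of lower glycolysis, 4 were called higher at 24 h. Gapdh, glyceraldehyde-3-phosphate dehydrogenase (chromosome 6, 125161715 to 125166467, minus strand), had the most abundant mRNA of the 36 and was at 594 and 595 RPKM at rest. In the order of times from 4 to 24 h it was at 559, 777, 1361, 1756, 2306 and 2276 RPKM in Th0, 552, 1100.3, 1460.3, 1694, 2262 and 2417 RPKM in Th1 and 847, 1411, 1978, 2226, 2508 and 2403 RPKM in Th2. At 4 h Th0 and Th1 lay just below the resting libraries and Th2 above them, and from 8 h all cultures lay above, with 1.99 ± 0.22 (SE, adjusted p = 1.42e-06) or 3.97-fold at 24 h. Pgk1, phosphoglycerate kinase, which yields ATP (chromosome X, 106187100 to 106203699, plus strand), went from 66.5 and 69.6 RPKM at rest to 74.7, 86.6 and 117 RPKM at 4 h and 299.5, 340.4 and 356 RPKM at 24 h, with 2.27 ± 0.19 (SE, adjusted p = 4.46e-08).

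Pgam1, phosphoglycerate mutase (chromosome 19, 41911923 to 41918660, plus strand), had the largest rise of the 6. It was at 38.5 and 37.0 RPKM at rest, and with exact Poisson 95% intervals, which cover counting error only, these values were 36.5 to 40.6 and 35.2 to 38.9 RPKM. In the order of times it was at 48.1, 66.2, 137, 190.2, 233 and 264 RPKM in Th0, 50.8, 116, 174, 173, 247 and 294 RPKM in Th1 and 82.5, 155, 171, 208, 260.2 and 237 RPKM in Th2. Every culture lay above both resting libraries, and the difference at 24 h was 2.79 ± 0.26 (SE, adjusted p = 2.06e-07) or 6.92-fold, which moved Pgam1 from rank 18 to rank 7 in the order of mean levels of the 36 genes. Pkm, pyruvate kinase (chromosome 9, 59656368 to 59679375, plus strand), went from 191 and 199.7 RPKM at rest to 617, 685 and 517 RPKM at 24 h, with 1.62 ± 0.19 (SE, adjusted p = 2.44e-06), and from rank 5 to rank 3.

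Eno1, the main enolase (chromosome 4, 150236721 to 150248879, plus strand), was at 285 and 302 RPKM at rest, 332, 164 and 514 RPKM at 4 h, then 607, 671 and 485 RPKM at 24 h. At 4 h Th1 lay below and Th0 and Th2 above the resting libraries, and at 24 h all 3 cultures lay above, with 0.99 ± 0.30 (SE, adjusted p = 0.00832). Eno2, the neuronal enolase, was low throughout, between 1.51 and 1.54 RPKM at rest and between 1.69 and 3.37 RPKM in the cultures. All of its cultures thus lay above both resting libraries. Reads of these genes can be shared with copies: transcripts of other genes hold 53.9% of the 50-base windows found in Pgk1 transcripts, 36.2% for Pgam1, 26.0% for Eno1, 25.8% for Pkm and 25.1% for Gapdh. How the counting treated such reads is not given in the sources used here, so these levels are uncertain to that extent.

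Lactate dehydrogenase and the monocarboxylate transporters handle the last step. Ldha encodes the subunit that favours lactate, Ldhb the subunit that favours pyruvate, Slc16a1 encodes MCT1 and Slc16a3 encodes MCT4, a transporter known for lactate export. A CACGTG reads as ACGTG on both strands and is counted on each. So counted, the Ldha promoter held 5 ACGTG with 2 CACGTG, and the Slc16a1 promoter 2 ACGTG with 1 CACGTG and 2 GCGTG. The Ldhb promoter held 1 GCGTG and the Slc16a3 promoter 2 ACGTG. The other RefSeq start of Ldha had 1 GCGTG and no ACGTG.
Ldha (chr7:46845554-46845803, plus strand): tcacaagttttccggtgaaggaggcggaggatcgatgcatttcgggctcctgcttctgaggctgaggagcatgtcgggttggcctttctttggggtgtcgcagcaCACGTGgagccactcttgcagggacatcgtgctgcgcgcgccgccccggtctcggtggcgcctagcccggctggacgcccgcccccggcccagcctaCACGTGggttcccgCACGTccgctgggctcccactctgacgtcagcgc
Ldhb (chr6:142507958-142508207, minus strand): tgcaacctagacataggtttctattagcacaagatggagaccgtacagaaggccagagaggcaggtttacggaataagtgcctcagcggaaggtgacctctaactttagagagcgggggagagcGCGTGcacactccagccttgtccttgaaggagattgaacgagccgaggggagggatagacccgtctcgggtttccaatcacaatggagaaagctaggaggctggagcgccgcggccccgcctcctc
Slc16a1 (chr3:104638414-104638663, plus strand): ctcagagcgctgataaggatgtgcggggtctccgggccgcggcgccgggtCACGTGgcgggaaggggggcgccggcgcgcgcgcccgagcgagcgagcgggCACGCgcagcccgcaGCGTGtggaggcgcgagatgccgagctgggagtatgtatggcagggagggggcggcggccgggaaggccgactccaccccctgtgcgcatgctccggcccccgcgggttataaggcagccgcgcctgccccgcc
Slc16a3 (chr11:120948817-120949066, plus strand): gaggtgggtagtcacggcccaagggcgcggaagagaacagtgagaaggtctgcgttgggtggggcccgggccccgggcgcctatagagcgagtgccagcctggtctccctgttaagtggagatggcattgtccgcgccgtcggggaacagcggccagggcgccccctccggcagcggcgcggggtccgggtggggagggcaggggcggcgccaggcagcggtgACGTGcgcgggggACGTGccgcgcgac

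Ldha (chromosome 7, 46841475 to 46855627, plus strand) was at 308 and 305 RPKM in the resting libraries, the second highest level after Gapdh. In the order of times it was at 237, 405, 589, 597, 754 and 929.8 RPKM in Th0, 292, 626, 666, 703, 892 and 1009.9 RPKM in Th1 and 511, 756, 687, 664, 793 and 811 RPKM in Th2. At 4 h Th0 and Th1 lay below both resting libraries and Th2 lay above, and from 8 h every culture lay above, with 1.57 ± 0.26 (SE, adjusted p = 5.83e-05) at 24 h. Ldhb (chromosome 6, 142490249 to 142507957, minus strand), by contrast, was at 20.4 and 25.4 RPKM at rest and 21.2, 19.4 and 24.6 RPKM at 24 h, where the groups overlapped, with -0.07 ± 0.17 (SE, adjusted p = 0.729). Ldhb took 6.20 to 7.68% of the RPKM of this pair at rest and 1.89 to 2.94% at 24 h.

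Slc16a1 (chromosome 3, 104638668 to 104658462, plus strand) was at 28.8 and 29.5 RPKM at rest, 17.0, 24.0 and 36.1 RPKM at 4 h, then 42.8, 46.9 and 45.6 RPKM at 24 h. Its cultures lay on both sides of the resting libraries at 4 h and above them at 24 h, with 0.62 ± 0.26 (SE, adjusted p = 0.0439). Slc16a3 (chromosome 11, 120948480 to 120960868, plus strand) rose early and then fell back: it was at 1.55 and 2.92 RPKM at rest, 5.83, 5.60 and 8.15 RPKM at 4 h, then 4.02, 3.55 and 3.30 RPKM at 24 h. All cultures lay above both resting libraries, and it was called higher at 4 h, with 1.39 ± 0.26 (SE, adjusted p = 0.000605), but not at 24 h, with 0.63 ± 0.26 (SE, adjusted p = 0.0396). Slc16a3 reached 18.4 to 25.6% of the RPKM of this pair at 4 h, against 5.11 to 9.01% at rest and 6.74 to 8.58% at 24 h.

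Among the regulators, Hif1a rose at once and Pdk1 fell. Hif1a, the subunit of HIF-1 that responds to oxygen and to T cell receptor signals (chromosome 12, 73901375 to 73947530, plus strand), was at 46.3 and 46.6 RPKM at rest. In the order of times it was at 87.3, 91.7, 104, 101, 94.7 and 89.1 RPKM in Th0, 109.8, 129, 127, 103, 105 and 104 RPKM in Th1 and 113, 128, 104, 87.6, 82.1 and 79.0 RPKM in Th2. All cultures lay above both resting libraries, with 1.13 ± 0.17 (SE, adjusted p = 8.35e-05) at 4 h and 0.95 ± 0.17 (SE, adjusted p = 0.000123) at 24 h. Pdk1, a kinase that blocks pyruvate dehydrogenase (chromosome 2, 71873224 to 71903858, plus strand), was at 83.0 and 87.5 RPKM at rest. In the order of times it was at 43.9, 55.9, 31.1, 29.3, 25.6 and 24.0 RPKM in Th0, 41.7, 31.9, 26.2, 31.6, 24.5 and 22.0 RPKM in Th1 and 25.1, 17.0, 19.1, 21.7, 23.8 and 21.7 RPKM in Th2. Every culture lay below both resting libraries, with -1.24 ± 0.34 (SE, adjusted p = 0.0106) at 4 h and -1.90 ± 0.34 (SE, adjusted p = 0.000148) at 24 h, and Pdk1 went from rank 9 to rank 29 among the 36. The call at 4 h was lost without the Th1 cultures, the Th2 cultures or either resting library, with log2 differences between -1.35 and -0.99. Pfkfb3 and Pfkfb4 make and remove the activator of phosphofructokinase. Pfkfb3 was at 16.1 and 17.6 RPKM at rest, peaked at 41.8 RPKM in Th2 at 8 h and stood at 25.2, 25.0 and 23.0 RPKM at 24 h, with 0.52 ± 0.23 (SE, adjusted p = 0.0598). Pfkfb4 went from 4.06 and 4.81 RPKM to 3.30, 1.72 and 2.07 RPKM, with -0.82 ± 0.21 (SE, adjusted p = 0.00284).

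Of the pyruvate dehydrogenase complex, Dld, the shared dihydrolipoamide dehydrogenase (chromosome 12, 31331277 to 31351453, minus strand), was called higher at 24 h. It went from 37.7 and 34.7 RPKM at rest to 66.3, 68.0 and 94.9 RPKM, all above rest, with 1.05 ± 0.14 (SE, adjusted p = 8.78e-06). Without Th2 at 24 h the difference was 0.88 and without the second resting library 0.99, both under 2-fold. Dlat, the acetyltransferase core (chromosome 9, 50634633 to 50659780, minus strand), dipped and rose, from 23.7 and 23.1 RPKM at rest through 15.0, 16.7 and 19.6 RPKM at 4 h to 45.1, 46.5 and 43.7 RPKM at 24 h. The cultures lay below rest at 4 h, with -0.45 ± 0.15 (SE, adjusted p = 0.0294), and above it at 24 h, with 0.93 ± 0.15 (SE, adjusted p = 5.20e-05). The subunits of the decarboxylase moved less. Pdha1 stood at 71.7 and 73.0 RPKM at rest and 72.7, 77.5 and 66.6 RPKM at 24 h, where the groups overlapped. Pdhb went from 59.2 and 55.2 RPKM to 72.8, 66.5 and 92.6 RPKM, with 0.42 ± 0.12 (SE, adjusted p = 0.00638), its highest value being that of Th2.

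The 3 oxidative enzymes of the pentose phosphate pathway rose, 1 of them past 2-fold at 24 h. G6pdx, which makes the first NADPH of the pathway (chromosome X, 74409483 to 74429194, minus strand), went from 29.9 and 33.1 RPKM at rest through 34.7, 35.6 and 34.0 RPKM at 4 h to 59.6, 64.6 and 64.2 RPKM at 24 h. All cultures lay above both resting libraries, and the 24 h difference was 0.98 ± 0.09 (SE, adjusted p = 2.32e-07). Pgls, the lactonase, went from 20.4 and 22.3 RPKM to 38.9, 47.1 and 42.9 RPKM at 24 h, with 0.99 ± 0.15 (SE, adjusted p = 2.51e-05), and Pgd, which makes the second NADPH (chromosome 4, 149149991 to 149166771, minus strand), from 44.3 and 39.2 RPKM to 103, 97.1 and 90.2 RPKM, with 1.20 ± 0.18 (SE, adjusted p = 2.82e-05). Pgls and G6pdx lay just under 2-fold, and both passed it without the Th0 cultures or without the second resting library. Pgls shares 18.9% of its windows with Fam129c and G6pdx shares 16.9% with Ikbkg and G6pd2.

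In the non-oxidative arm, Tkt, Taldo1, Rpia and Rpe interconvert sugar phosphates, and their mRNAs did not move together. Tkt, transketolase (chromosome 14, 30548359 to 30574720, plus strand), was at 91.6 and 101 RPKM at rest, and Th0, Th1 and Th2 were at 63.3, 57.9 and 101 RPKM at 4 h, 91.6, 146 and 185 RPKM at 8 h and 206, 203 and 214 RPKM at 24 h. Th0 and Th1 lay below both resting libraries at 4 h and all cultures lay above from 12 h, with 1.11 ± 0.24 (SE, adjusted p = 0.000773) at 24 h. Taldo1, transaldolase (chromosome 7, 141392199 to 141402968, plus strand), fell from 149.5 and 148 RPKM to 98.7, 88.1 and 108 RPKM at 4 h and was at 109, 107 and 85.2 RPKM at 24 h, always below rest, with -0.60 ± 0.11 (SE, adjusted p = 0.000558) and -0.58 ± 0.11 (SE, adjusted p = 0.000262). Rpia, the ribose phosphate isomerase, was lower at 4 h, at 20.9, 22.6 and 27.7 RPKM against 35.5 and 37.5 RPKM at rest, with -0.62 ± 0.18 (SE, adjusted p = 0.0161), and stood at 44.7, 39.7 and 37.6 RPKM at 24 h. Rpe, the epimerase, was at 19.1 and 18.1 RPKM at rest and 19.1, 22.3 and 28.2 RPKM at 24 h, with 0.29 ± 0.16 (SE, adjusted p = 0.128). The 7 pentose phosphate enzymes summed to 0.064 to 0.066% of all RPKM at rest, 0.048 to 0.057% at 4 h and 0.088 to 0.097% at 24 h.

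**Figure D3:**
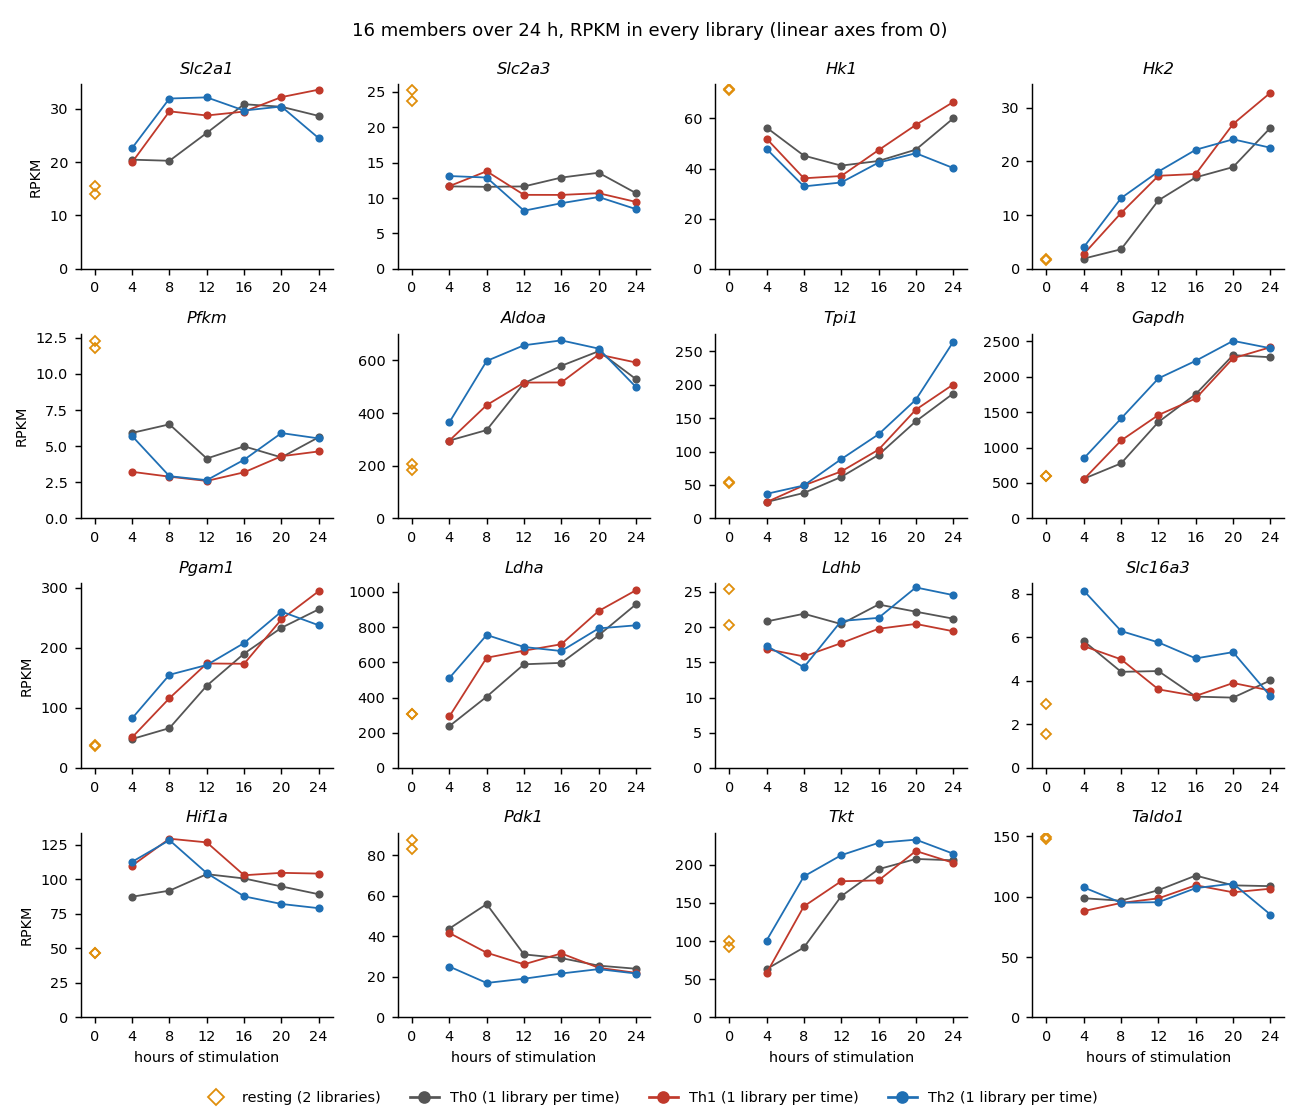
RPKM on linear y axes that start at 0, against hours of stimulation, for 16 of the 36 genes, with diamonds for the 2 resting libraries and a line of 1 library per time for each of Th0, Th1 and Th2. Slc2a3, Pfkm, Pdk1 and Taldo1 lie below the resting libraries at all times, Hk2, Pgam1 and Hif1a above them, and the Th2 line of Hk2, Pgam1 and Ldha is the highest at 4 and 8 h and not at 24 h.

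From 4 h on, the step with the most changes past the adjusted p was that to 8 h. Hk2 was called higher at 8 h than at 4 h, with 1.37 ± 0.33 (SE, adjusted p = 0.00736), the 1 call among the 35, beside 2.95% of all genes. Without the Th1 cultures this difference was 1.19 (adjusted p = 0.201). Whatever the size, 14 of the 35 rose past the adjusted p in that step, against 15.8% of all genes. Among them Tkt rose by 0.91, Pgk1 by 0.90, Pgam1 by 0.85, Ldha by 0.81, Gapdh by 0.73 and Tpi1 by 0.68 on the log2 scale. Hk1 was not among them and fell by 0.46 past the adjusted p. The 14 became 0 without the Th1 cultures and also when only the libraries compared were fitted. In the later steps 0 of the 35 passed the adjusted p in limma, beside 2.05% of all genes from 8 to 12 h, 0.358% to 16 h, 0.606% to 20 h and 0.78% to 24 h. At an unadjusted p under 0.05 there were 10, 2, 2 and 1 genes in these steps, without a share of all genes to set them against. The highest of the 6 values stood at 24 h for 16 of the 36 genes in Th0, 20 in Th1 and 8 in Th2. In Th2 it stood at 20 h for 14. These counts are given without the share of all genes, so they do not set the 36 genes apart. At 24 h, 41.0% of all genes were higher in Th2 than in Th0, and 38.5% higher in Th2 than in Th1. Whether the lower count in Th2 at 24 h is particular to these genes was not tested.

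In the fit of the 18 cultures that compared the conditions, the time point was a factor, so times stand in for replicates of 1 culture series each. The differences in these genes were below 2-fold. None of the 35 passed limma's adjusted p with a 2-fold difference, 0 for Th2 against Th0 (2.01% of 10737 genes) and 0 for Th2 against Th1 (1.96%). At an unadjusted p under 0.05 there were 20 and 9 whatever their size. Counts at an unadjusted p stand here without the share of all genes, so they show no excess of these genes. Past the adjusted p at any size, 12 were higher in Th2 than in Th0, where 12.9% of all genes were, and 2 were lower (16.7%). For Th2 against Th1, 3 were higher (3.49% of all genes) and 0 lower (8.71%), with 3 lower at an unadjusted p under 0.05. The 3 became 0 without 4, 12 or 16 h, 1 without 20 h and 5 without 24 h. For Th1 against Th0, 0 of 35 passed the adjusted p in limma (2.27% of all genes) and 7 had an unadjusted p under 0.05. The 12 depended on the times included: 5 were left without 4 h, 6 without 8 h, 7 without 20 h and 2 with 12 to 24 h only. With 4 to 12 h only, an alternative added after the data were seen, 13 were higher (12.8% of all genes) and 2 lower (13.4%).

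The genes higher in Th2 than in Th0 came from lower glycolysis, from lactate transport and from the pentose phosphate pathway, among others. Tpi1 differed by 0.44 ± 0.07 (SE, adjusted p = 0.000355) and Gapdh by 0.42 ± 0.10 (SE, adjusted p = 0.00570), and Th2 was the higher at 6 of 6 times for both. Pgk1 differed by 0.36 ± 0.08 (SE, adjusted p = 0.00577), Tkt by 0.43 ± 0.11 (SE, adjusted p = 0.0111) and Slc16a1 by 0.43 ± 0.13 (SE, adjusted p = 0.0196), also with Th2 higher at 6 of 6 times. The difference of Hk2 was 0.60 ± 0.18 (SE, adjusted p = 0.0187) and that of Pgam1 0.41 ± 0.14 (SE, adjusted p = 0.0384), and at 24 h their ratios were below 1. Eno2 (0.38), Slc16a3 (0.37), Pgd (0.29), Rpe (0.26) and Dld (0.24) were the others on the log2 scale. Eno2 kept its call in 8 of 18 alternatives and Slc16a3 in 11 of 18, Rpe in 11 of 19, Pgd in 12 of 19 and Dld in 14 of 19. Pdk1 was lower in Th2 at all 6 times, with -0.64 ± 0.15 (SE, adjusted p = 0.00604), and so was Hk1, with -0.26 ± 0.09 (SE, adjusted p = 0.0386), a call kept in 10 of 19 alternatives. Tpi1, Gapdh and Slc16a3 were also higher in Th2 than in Th1, with 0.29 ± 0.07 (SE, adjusted p = 0.0126), 0.32 ± 0.10 (SE, adjusted p = 0.0416) and 0.38 ± 0.11 (SE, adjusted p = 0.0302). Txnip, whose product restrains glucose uptake and which is no enzyme of the pathway, was lower in Th2 than in Th0 with -1.06 ± 0.11 (SE, adjusted p = 4.23e-06).

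Of the 35 genes, the number above Th0 in Th2 was 25, 27, 28, 26, 26 and 12 at 4, 8, 12, 16, 20 and 24 h, so it stayed between 25 and 28 up to 20 h and was lower in the 24 h libraries alone. Of all genes, 45.1, 50.3, 54.8, 51.1, 49.6 and 41.0% were above Th0 at these times. The median log2 ratio of the 35 was 0.30, 0.47, 0.17, 0.13, 0.07 and -0.13, highest at 8 h and below 0 at 24 h. The median of all genes was also lowest at 24 h, at -0.07. For Th2 to Th1 at 24 h the median was -0.11 for the 35 and -0.10 for all genes. The RPKM ratio of Th2 to Th0 for Hk2 was 2.11 at 4 h, 3.61 at 8 h and 0.859 at 24 h. That for Ldha was 2.15, 1.87 and 0.872. Pgam1 had ratios of 1.72, 2.34 and 0.899 and Pdk1 of 0.572, 0.304 and 0.901, in the opposite direction. At 8 h Th1 was also above Th0, 2.85-fold for Hk2, 1.75-fold for Pgam1 and 1.55-fold for Ldha. Th0 at 8 h is the library that stood farthest from its time, so the ratios to Th0 at 8 h rest on it.

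The change of these differences was tested as a linear slope and is given over the 20 h from 4 to 24 h. The difference of Th2 from Th0 fell by at least 2-fold past the adjusted p in 4 of 35 genes, where 3.21% of all genes did. The change was -1.29 ± 0.21 (SE, adjusted p = 0.00546) for Ldha, -1.42 ± 0.38 (SE, adjusted p = 0.0465) for Hk2, -1.15 ± 0.29 (SE, adjusted p = 0.0362) for Pgam1 and -1.10 ± 0.26 (SE, adjusted p = 0.0253) for Slc16a1. The difference of Th2 from Th1 fell in 2 of 35, where 0.689% of all genes did: Eno1, with -1.71 ± 0.27 (SE, adjusted p = 0.00711), and Ldha, with -1.01 ± 0.21 (SE, adjusted p = 0.0378). Eno1 was 3.13-fold higher in Th2 than in Th1 at 4 h and at a ratio of 0.724 at 24 h. For Th1 against Th0, 0 of 35 passed the adjusted p in limma (0.0279% of all genes). At an unadjusted p under 0.05 there were 5, without a share of all genes to set them against. Without the Th2 library at 24 h, the change against Th0 was -1.21 for Hk2 (adjusted p = 0.17) and -1.09 for Pgam1 (adjusted p = 0.11), and against Th1 it was -1.13 for Ldha (adjusted p = 0.072) and -1.66 for Eno1 (adjusted p = 0.0522). The change of Ldha against Th0 passed in all 16 alternatives, between -1.42 and -1.17. The count of 4 was 10 without 4 h, 2 without 12 h and 1 without each of 8, 16, 20 and 24 h, and the count of 2 was 0 without 24 h and 1 without each of 4, 12, 16 and 20 h.

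**Figure D4:**
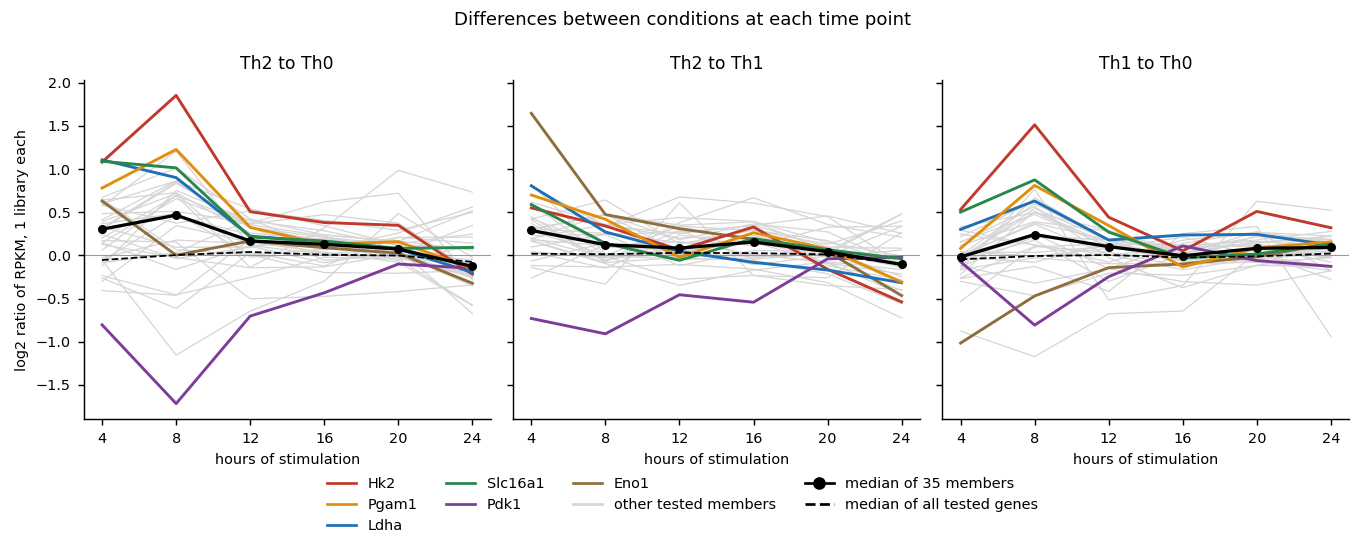
Log2 ratio of RPKM between 2 conditions on the y axis, 1 library each, against hours of stimulation, for Th2 to Th0, Th2 to Th1 and Th1 to Th0. Coloured lines are 6 named genes, grey lines the other tested genes of the pathway, the black line the median of the 35 and the dashed line the median of all genes tested. The median of the 35 genes for Th2 to Th0 is 0.47 at 8 h and -0.13 at 24 h, and Hk2 lies highest and Pdk1 lowest at 8 h. The median of all genes for Th2 to Th0 is 0.003 at 8 h and -0.07 at 24 h.

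After transcription was stopped at 16 h, mRNAs that decay faster than the rest fall in RPKM, which is relative to the RNA left. There was 1 library per time, and a slope was called at an adjusted p under 0.05 in limma on log2(RPKM + 0.1) and at least 0.25 log2 per hour. Of the 35 genes 4 fell, where 6.01% of all 10571 genes tested did, and 0 rose in limma, where 4.33% did, while Pdk1 passed the adjusted p with a slope of 0.20. Hk2 was at 15.6, 12.6, 6.17 and 5.35 RPKM after 0, 1, 2 and 4 h, a slope of -0.40 ± 0.07 (SE, adjusted p = 1.48e-05) log2 per hour, and ended at 0.344 of its first value. Hif1a was at 141, 104, 75.2 and 66.7 RPKM, with a slope of -0.27 ± 0.06 (SE, adjusted p = 0.000164), and fell at every step as well. The lowest value of both was the one at 4 h. Dlat, the core of pyruvate dehydrogenase, was at 34.2, 27.0, 24.1 and 15.4 RPKM, with a slope of -0.28 ± 0.06 (SE, adjusted p = 0.000251). Slc16a1 was at 44.1, 38.0, 32.7 and 21.9 RPKM, with a slope of -0.25 ± 0.06 (SE, adjusted p = 0.000572). The glucose transporter Slc2a1, with 24.6, 18.9, 15.2 and 14.5 RPKM, fell past the adjusted p but by less than 0.25 per hour, at -0.18. Of the abundant enzymes, Gapdh was at 2225, 2639.8, 2583 and 2930.4 RPKM and Ldha at 755, 812, 677 and 600.3 RPKM.

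An exact two-sided permutation over the 24 orders of the 4 libraries cannot go below 0.0417. It gave 0.0417 for Dlat and Slc16a1 and 0.0833 for Hk2 and Hif1a. The same permutation also gave 0.0417 for Pfkm, Aldoc and Pgls, whose slopes went up. Without the 0 h library the slope of Hif1a was -0.20 (adjusted p = 0.23), and Dlat and Slc16a1 lost their calls without either the 0 h or the 4 h library. The call of Slc16a1 was kept in 5 of 11 alternatives, since its slope was also smaller than 0.25 per hour, between -0.25 and -0.24, with a pseudocount of 0.5 or 1, upper-quartile scaling or quantile normalization. The 0 h library lay within the range of the 3 cultures at 16 h for 16 of the 36 genes, above it for 11 and below it for 9. The share of all genes was not counted, so these counts do not set the 36 genes apart. Hif1a was at 141 RPKM in the 0 h library and at 87.6 to 103 RPKM in the cultures, and the cause was not tested. Cell markers differed as well. B cell markers summed to 3.51 to 4.93 RPKM in the actinomycin libraries and 17.97 to 20.5 RPKM in the 16 h cultures. CD8 and NK cell markers summed to 12.3 to 17.2 against 32.97 to 77.1 RPKM. Macrophage markers were higher, at 63.6 to 84.7 against 18.2 to 37.3 RPKM. Red cell, neutrophil, platelet and CD4+ T cell sums were also higher, and haemoglobin overlapped. The actinomycin labels lack the number that the culture labels carry.

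**Figure D5:**
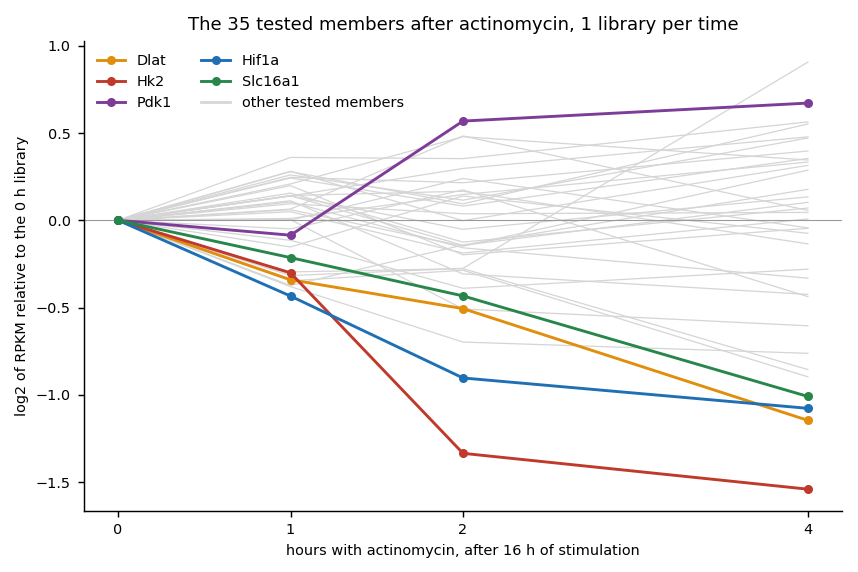
Log2 of RPKM relative to the 0 h library on the y axis against hours with actinomycin after 16 h of stimulation, 1 library per time, for the 35 tested genes. Hk2 falls lowest, to 0.344 of its first value at 4 h, followed by Dlat, Hif1a and Slc16a1, while Pdk1 lies above 0 at 2 and 4 h.

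Genes next to the pathway were counted from further lists. Of 24 tested genes among 37 others of glucose metabolism, 0 rose in limma and 5 fell at 4 h, with 1 higher and 15 lower at an unadjusted p under 0.05, and 2 rose and 9 fell at 24 h. Of all genes, 2.61% rose and 7.97% fell at 4 h, and 12.7% rose and 17.4% fell at 24 h. These shares apply to the calls in the lists that follow as well. They do not apply to counts at an unadjusted p, for which no share of all genes is given. Galk1, galactokinase, went from a mean of 8.03 RPKM at rest to 63.1 RPKM at 24 h, with 2.90 ± 0.38 (SE, adjusted p = 6.41e-06). Prps1, which makes the activated ribose for nucleotides, went from 32.2 to 151 RPKM, with 2.04 ± 0.39 (SE, adjusted p = 0.000275). The largest falls were in Pklr, the pyruvate kinase of liver and red cells, from 13.6 to 0.0273 RPKM, Slc2a4, the insulin-dependent transporter, from 5.79 to 0.0493 RPKM, and Bpgm, the red cell enzyme of bisphosphoglycerate, from 92.4 to 17.2 RPKM. Haemoglobin and red cell markers fell in the same libraries, and their part in these falls was not tested. Slc2a6, a glucose transporter family member of lysosomes, differed between conditions, with 2.57 ± 0.21 (SE, adjusted p = 4.32e-07) for Th2 against Th1. It was also called lower in Th1 than in Th0, with -1.73 ± 0.21 (SE, adjusted p = 0.000193).

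Of the 16 genes of the TCA cycle, which burns the pyruvate that enters mitochondria, 0 rose in limma and 1 fell at 4 h, and 4 rose and 0 fell at 24 h. At an unadjusted p under 0.05, 0 were higher and 6 lower at 4 h, and 14 were higher and 0 lower at 24 h. The 4 of 16 compare with 12.7% of all genes, a share that does not apply to the counts at an unadjusted p. Fh1, fumarase, was among the risen, from 29.8 to 92.7 RPKM, with 1.59 ± 0.23 (SE, adjusted p = 2.02e-05), and so were Sdhd, with 1.39 ± 0.15 (SE, adjusted p = 8.05e-07), and Idh3a, with 1.24 ± 0.22 (SE, adjusted p = 0.000148). Of 8 tested genes for pyruvate entry and its switches, 0 were called at 4 or 24 h in limma, with 2 higher at 4 h and 5 higher at 24 h at an unadjusted p under 0.05. Of 16 tested HIF pathway genes and targets outside glycolysis, 0 rose in limma and 2 fell at 4 h, with 5 higher and 4 lower at an unadjusted p under 0.05, and 2 rose and 4 fell at 24 h, where 12.7% of all genes rose and 17.4% fell. Ddit4, an inhibitor of mTORC1, went from 40.1 RPKM at rest to 10.2 RPKM at 4 h and 9.87 RPKM at 24 h, and Egln3, a HIF prolyl hydroxylase, from 1.90 to 6.24 RPKM, with 1.32 ± 0.48 (SE, adjusted p = 0.0222). Txnip was 1 of 3 tested genes of its own list and the 1 that was called, at a mean of 475 RPKM at rest, 140.0 RPKM at 4 h and then 24.8 RPKM at 24 h, with -1.80 ± 0.44 (SE, adjusted p = 0.00513) at 4 h and -4.26 ± 0.44 (SE, adjusted p = 6.06e-07) at 24 h. After actinomycin Txnip fell by 0.25 log2 per hour.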

How the data were processed

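RNA sequencing was carried out by the authors on an Illumina NextSeq, and RPKM values per gene symbol were deposited for 24 libraries. The submitters' processing notes name BWA and GRCm38, with no version, and the counting tool and the annotation are not given in the sources used here. One entry without a name summed to 0 and was left out. The members, the lists and the tests were chosen with earlier results of these data known. All 36 members are named, and of each other list up to the 3 largest rises and falls called in a comparison; Slc2a6, Sdhd and Idh3a come from that rule, and Txnip is named as the called gene of its list.

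Fits were made in R 4.3.3 with limma 3.58.1 and its intensity trend, on log2(RPKM + 0.5). Genes entered a fit where their mean over its libraries was 1 RPKM or more, and p-values were adjusted by Benjamini-Hochberg over all genes tested. A fold on this scale understates the change of low genes. Times were compared with rest over 20 libraries, with the 3 cultures of a time as its libraries, and conditions over 18 cultures with time as a factor. For actinomycin, log2(RPKM + 0.1) was fitted on hours. The fits were tested on simulated data first. The rest was computed in Python 3.11.15 (scipy 1.17.1, numpy 2.4.6 and pandas 2.3.3).

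Depth was read from the steps of the values, where 922 of 1503 genes led to 1 depth to within 0.1%. Whole reads within 0.02 were found for 5 members (Pgam1, Pkm, Slc16a1, Pdhb and Dld), so counting intervals exist for these alone. The SD of the log2 difference between the resting libraries was 0.18. Marker lists of CD4+ T cells, haemoglobin, red cells, macrophages, B cells, CD8 and NK cells, neutrophils and platelets were summed as RPKM. Alternatives were other pseudocounts and filters, other scalings, no trend, only the libraries compared, and leaving out each library group or time.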

Additional observations from a re-analysis of the deposited data

Results flagged for a closer look

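The difference between Th2 and Th0 changed over the 20 h from 4 to 24 h, by a test of the change itself, in Hk2 by -1.42 log2, in Pgam1 by -1.15, in Slc16a1 by -1.10 and in Ldha by -1.29. The difference between Th2 and Th1 changed in Ldha by -1.01 log2 and in Eno1 by -1.71. In each of these, Th2 had the higher level at 4 h. The Th2 to Th0 ratio of Slc16a1 was still above 1 at 24 h, at 1.07, and the others had a ratio below 1 by then. Of all genes at 24 h, 41.0% were higher in Th2 than in Th0 and 38.5% higher than in Th1. A ratio below 1 was thus not particular to these genes.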

How the results depend on the processing

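The numbers of called members held within 1.5 times in 306 of 362 alternatives, and 56 moved further. Of the named genes' results, 811 kept their side of the threshold, 145 lost it, 31 gained it and 0 changed direction. For times against rest the threshold was the call with 2-fold, so changes under 2-fold count as kept whatever their adjusted p. At 4 h, Slc2a1, Aldoa, Dlat and Rpia did not pass the adjusted p in every alternative, while Taldo1 did.

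At 4 h the count of 2 higher was 1 under a filter at a mean of 5 RPKM, and the count of 2 lower was 4 with quantile normalization and 0 to 3 with libraries left out. At 8 h the count of 6 higher was 4 to 10 with libraries left out (10 without the Th0 cultures), and that of 2 lower was 1 with only the libraries compared. At 16 h the count of 10 was 6 with the haemoglobin genes left out, and at 24 h that of 11 was 17 with median-of-ratios scaling. From 4 to 8 h, the counts of 1 called and 14 past the adjusted p were both 0 with only the libraries compared, and 0 to 3 and 0 to 17 with libraries left out.

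For Th2 against Th0, the 12 higher were 2 with 12 to 24 h only, 4 with only the libraries compared and 5 to 15 with a time left out. The 2 lower were 1 with no filter, median-of-ratios scaling or only the libraries compared, and 1 to 2 with a time left out. With 4 to 12 h only, 2 genes, Hk2 and Pdk1, passed 2-fold instead of 0. For Th2 against Th1, the 3 higher were 1 with no filter or 12 to 24 h only, 0 with 4 to 12 h only and 0 to 6 with a time left out. For Th1 against Th0 the 0 was 0 to 1. The changes with time in 4 genes against Th0 were 1 with no filter, 2 with no trend and 1 to 10 with a time left out. Those in 2 genes against Th1 were 1 with no filter, no trend, median-of-ratios or upper-quartile scaling, and 0 to 2 with a time left out. After actinomycin the 4 falls were 1 to 4 with a library left out.

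The restriction to 4 to 12 h and leaving out Th2 at 24 h were chosen after seeing the data. Causes were not tested. Tpi1 and Pdk1 kept their Th2 to Th0 call in all 19 alternatives, Gapdh, Pgk1 and Tkt in 18, Slc16a1 in 15, Hk2 and Dld in 14, Pgd in 12, Pgam1 and Rpe in 11 and Hk1 in 10, and of 18 alternatives Slc16a3 kept it in 11 and Eno2 in 8. The slope of Slc16a1 after actinomycin was called in 5 of 11. No paired analysis was possible by replicate number, because the libraries carry no shared one, and the fit of the conditions compares them within each time point. Depth limits the genes near 1 RPKM, such as Aldoc.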
